A study of Rattus norvegicus with 56 samples.

Results

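The regions described here carried an H3K27me3 peak on the side of a brain haemorrhage at 2 ages and none on the other side at either age. Overlapping peaks of 4 H3K27me3 lists, from ipsilateral and contralateral tissue at 13 and 21 months, were joined into 493767 regions. A region entered the ipsilateral set when it held a peak in both ipsilateral lists and in neither contralateral list, which gave 11763 members, or 2.38% of the regions. The mirror rule gave a contralateral set of 2956 members, or 0.599%. The sets were chosen by these H3K27me3 peaks, so all values from the 4 lists are descriptions of what was chosen. Every member entered every count below, with no filter on low values.

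H3K27me3 is trimethylation of lysine 27 on histone H3. It is laid down by Polycomb repressive complex 2 and lies over genes that are held silent, many of them developmental regulators that have no use in mature brain cells. H3K4me3 marks the promoters of active and poised genes, and H3K9ac marks active promoters and enhancers. Acetylation is found with active transcription, whereas H3K4me3 and H3K27me3 can occupy the same promoter, a state called bivalent.

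Brain tissue was taken from rats after intracerebral haemorrhage (bleeding inside the brain), either from the ipsilateral side, where the bleed lay, or from the contralateral side. The rats were 13 or 21 months old per the sample labels, though the series' own text puts the older ones at 22 months. Untreated groups had 2 ChIP and 2 input libraries for each mark, side and age. In 2 further groups, 21-month rats had received plasma of 3-month or of 22-month rats, and ipsilateral tissue was profiled with 1 ChIP and 1 input library for H3K27me3 and for H3K9ac. Strain, sex and whether libraries came from separate animals are not stated in the labels. The tissue was not checked against cell type markers, since no gene annotation of the lists' genome build was used here.

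Each group has a single peak list in which its libraries were pooled, so no value below has a spread between replicates and no difference between groups or sets was tested. Intervals in parentheses are 95% Wilson intervals over regions. They cover counting error only, and neighbouring regions are not independent. The 2 untreated ipsilateral H3K27me3 lists rest on more tags than their contralateral partners, 71635071 against 35621686 at 13 months (2.01 times) and 117740131 against 73142126 at 21 months (1.61 times). Peak numbers followed the tags at 13 months, with 117866 ipsilateral and 51805 contralateral peaks, but not at 21 months, with 300668 and 367061. Duplicates made up 23% and 52% of ChIP tags at 13 months and 15% and 19% at 21 months. In bulk tissue, a region marked in fewer cells and a region marked more weakly in the same cells cannot be told apart.

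The ipsilateral set was larger than the contralateral set and also exceeded the regions that changed sides. Regions marked on the ipsilateral side at 13 but the contralateral side at 21 months numbered 5924 (1.2%), and those of the opposite change 1502 (0.304%). The size difference was smaller with lists of equal length. When each list was cut to its 51805 peaks of highest −log10 q-value (the peak caller's measure of confidence), the sets held 4136 ipsilateral and 3895 contralateral regions. This cut also removes weaker peaks, and at 21 months the contralateral list was the longer. With own peaks at −log10 q-values of 5 or more, 2062 and 750 members remained. The cause of the size difference was not tested.

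Members of both sets were short and weakly enriched beside regions with a peak in all 4 lists, though longer at the median than all joined regions. The median ipsilateral member spanned 483 bp (quartiles 377 to 643, longest 2593), the median contralateral member 456 bp (346 to 610, longest 3101), and the median over all joined regions was 383 bp. Regions with a peak in all 4 lists, of which there were 19530 and which are called shared below, had a median of 1763 bp. No member can be a shared region. The 474237 unshared regions, with a median of 372 bp, are therefore closer in this respect, and shares among them are given beside those of all regions below. They are not matched to the sets, since a member needs peaks in 2 lists. Among them, 168835 had a peak in the contralateral 21-month list alone (median 313 bp) and 94093 in the ipsilateral 21-month list alone (278 bp). How far this enters the differences from unshared regions was not tested. Members of 1 kb or more numbered 600 (5.10%) in the ipsilateral and 157 (5.31%) in the contralateral set, against 10.7% of all and 7.92% of unshared regions. The sets therefore had few of the broad domains that H3K27me3 is known for. They covered 6.37 and 1.54 Mb in all.

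Fold enrichment, the authors' ratio of ChIP signal to local background at a peak, lay close to the typical value of each list. In the ipsilateral set the median fold was 2.88 at 13 months (range 1.51 to 6.90) and 2.70 at 21 months (1.39 to 6.19), where the medians over all peaks of those lists were 2.84 and 2.63. In the contralateral set it was 3.27 (1.57 to 13.1) and 3.13 (1.38 to 22.0), against list medians of 3.45 and 2.99. Shared regions had higher medians in each list, 3.17 and 3.75 on the ipsilateral and 3.69 and 4.70 on the contralateral side. A fold of 4 or more at both ages was reached by 74 ipsilateral members (0.629%) and 137 contralateral ones (4.63%). Among regions that changed sides it was reached by 10 (0.169%, ipsilateral at 13 months) and 15 (0.999%, contralateral at 13 months). At 13 months alone, 4.83% of ipsilateral and 18.1% of contralateral members reached it. So did 1.69% of the regions that changed from the ipsilateral side and 22.7% of those that changed from the contralateral side. The share over all peaks of each list was not counted. The contralateral 13-month list had the higher median fold, so these shares are not read as a trait of the members. The folds are not corrected for the depth of each list.

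The 5 ipsilateral members with the highest lower fold of the 2 ages spanned 271 to 1174 bp and had no H3K4me3 or untreated H3K9ac peak. At chr5:118312011-118312988 the fold was 6.08 at 13 months and 5.46 at 21 months, and the region lay 285 bp from a shared region. At chr5:107586203-107586606 the folds were 5.92 and 5.11. At chr6:77266751-77267924 they were 4.96 and 5.44. The other 2 lay on chromosome 2. They were chr2:52926598-52927330, with folds of 4.86 and 5.14 and a shared region 93 bp away, and chr2:52621809-52622079, with 4.64 and 4.69. Of these 5, the first 3 also had a peak with plasma of 22-month rats, with folds of 4.04, 4.67 and 4.67, and the first had one with plasma of 3-month rats, with a fold of 3.93.

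The strongest contralateral members stood further above their lists. The leading region, chr1:11971516-11971916, reached a fold of 10.6 at 13 and 13.2 at 21 months. It carried no peak of H3K4me3, untreated H3K9ac or H3K27me3 with plasma. At chr10:5463373-5463936 the folds were 7.10 and 9.58, and H3K9ac was found there in 3 of 4 untreated lists, all but the contralateral 21-month list. This region also had H3K4me3 in 1 list, with a fold of 7.99, and an H3K27me3 peak with plasma of 22-month rats, with a fold of 4.61. The region chr7:11208583-11210133 had 6.61 at 13 months and 22.0 at 21 months, with H3K4me3 in 1 list (fold 3.16), and chr18:29294479-29294835 had 6.59 and 7.01. The fifth, chr2:120705-120970, with 6.55 and 6.38, lay in the outermost part of its chromosome and had a peak with plasma of 3-month rats, with a fold of 3.56.

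Location separated the sets more than length did. The median ipsilateral member lay 23577 bp from the nearest shared region, against 51699 bp for contralateral members and 48929 bp for all regions that were not themselves shared. Within 5 kb of a shared region were 3221 ipsilateral members (27.4%, 26.6 to 28.2) and 411 contralateral ones (13.9%, 12.7 to 15.2), with 15.0% over all unshared regions. Within 1 kb the shares were 12.7%, 4.43% and 5.17%. Regions that changed sides fell between the 2 sets at 5 kb, with 17.3% and 18.5%. Ipsilateral members thus lay beside constant H3K27me3 more often than the regions as a whole, and contralateral members about as often as these. A high share was not particular to the ipsilateral set. Regions with peaks in 3 of the 4 lists had 25.4% to 43.3%, and regions on both sides at 13 months alone 24.1%.

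**Figure D1:**
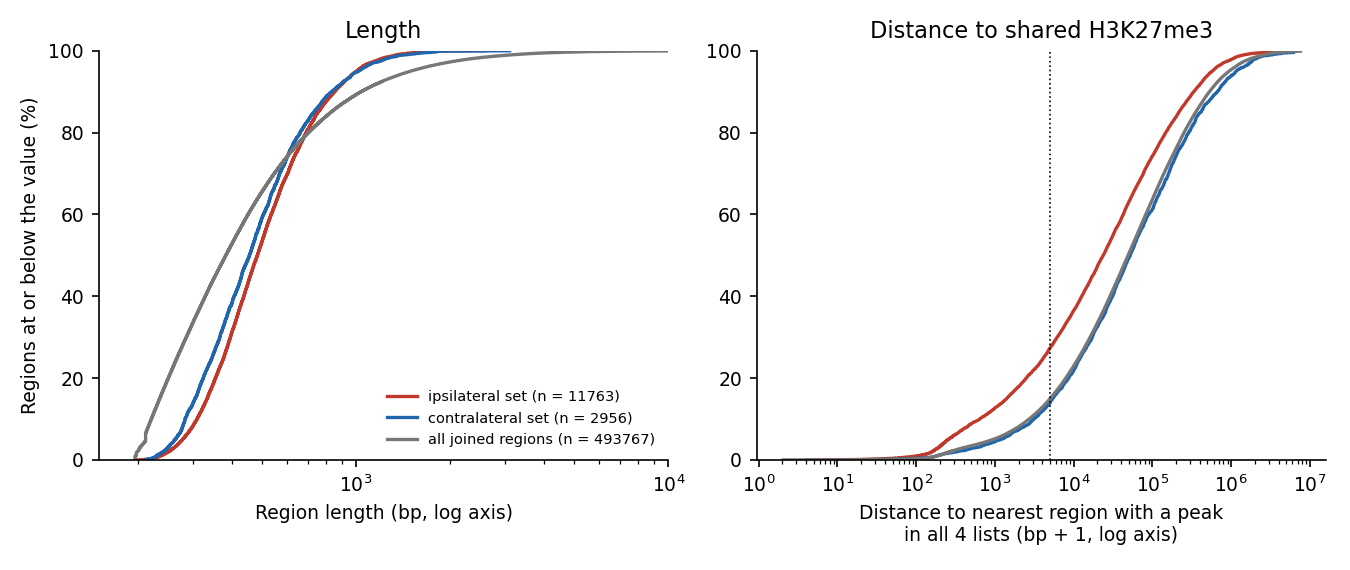
Cumulative share of regions (percent) by region length (left, bp, log axis) and by distance to the nearest region with an H3K27me3 peak in all 4 lists (right, bp, log axis, without the shared regions themselves), for the ipsilateral set (red), the contralateral set (blue) and all joined regions (grey). At the dotted line at 5 kb the ipsilateral curve stands at 27.4%, the contralateral at 13.9% and the grey at 15.0%.

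A missing peak on the other side seldom meant an empty neighbourhood. For ipsilateral members the nearest contralateral peak lay at a median of 7265 bp at 13 months and 788 bp at 21 months, and 91.4% of members had a 21-month contralateral peak within 5 kb. For contralateral members the nearest ipsilateral peak lay at 6859 and 1443 bp, and 73.0% had a 21-month ipsilateral peak within 5 kb. Members with no peak of the other side within 5 kb at either age numbered 866 (7.36%) in the ipsilateral and 695 (23.5%) in the contralateral set. These distances follow the number of peaks in each list, so the ages cannot be compared by them.

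The rule turns on a threshold, a q-value of 0.05, which is a −log10 q-value of 1.30. Just inside it, chr3:62390026-62390297, chr3:120428849-120429802 and chr8:36814327-36814853 entered the ipsilateral set with a 21-month peak at 1.30. Just outside, chr10:99950029-99950640, chr11:8185964-8186383 and chr13:105233810-105234517 were kept out by a 21-month contralateral peak at 1.32. For the contralateral set the nearest inside were chr6:43892834-43893376 and chr9:112684811-112685446 at 1.32 and chr1:7607789-7608390 at 1.33. The nearest outside, chr1:176945350-176945788, chr11:74404535-74405414 and chr2:186893681-186894861, held an ipsilateral peak at 1.30. A single contralateral list kept 31839 regions out of the ipsilateral set, 444 of them through a peak under 2, and a single ipsilateral list kept 10260 out of the contralateral set, 257 of them so. Among members, 1429 ipsilateral (12.1%) and 335 contralateral (11.3%) regions had a weaker own peak under 2.

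Along the genome the sets had different densities. Per 1000 joined regions, ipsilateral members ran from 13.4 on chromosome 12 to 29.0 on chromosome 2 among the autosomes, with 28.1 on chromosome 1. Contralateral members ran from 4.57 on chromosome 11 to 8.39 on chromosome 12. Chromosome 12 was thus the sparsest autosome for one set and the densest for the other, and the number of ipsilateral per contralateral member was 1.59 there and 5.28 on chromosome 2. The X chromosome held 64 ipsilateral (0.544%) and 31 contralateral members (1.05%), and 0.766% of all regions. Each set had 12 members on unplaced sequences.

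**Figure D2:**
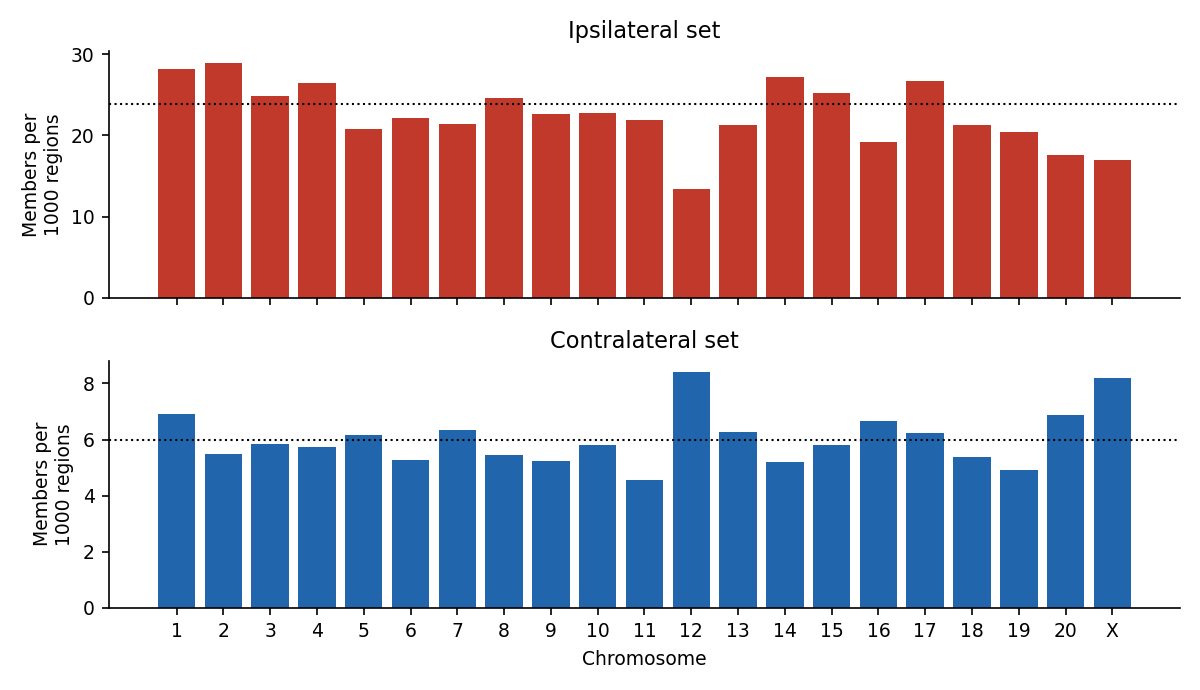
Members per 1000 joined H3K27me3 regions (vertical axes, different scales) on each chromosome, for the ipsilateral set (top) and the contralateral set (bottom); dotted lines mark the value over all regions. Chromosome Y, with 1 member in each set, is not drawn. Of the chromosomes drawn, 12 is lowest in the top panel, at 13.4, and highest in the bottom panel, at 8.39.

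Ipsilateral members were mostly single in the order of regions, though many lay in the same megabase. Windows of 1 Mb with 5 or more members held 9116 of them (77.6%), against 408 contralateral ones (13.9%). This share rises with the size of a set, and run length depends on the number of peaks of the other side. With regions taken in order, 9579 of the 11751 placed members (81.5%) had a region with a contralateral peak before the next member on either side, and the longest run held 6. That run, chr5:35628713-35639100, spanned 10388 bp and lay 436 bp from a shared region. Its members had median folds of 3.34 at 13 and 3.32 at 21 months, 3 of them held a peak with plasma of 3-month rats and 1 with plasma of 22-month rats. A run of 5 at chr3:141319348-141325418 lay 151 bp from a shared region, and 4 and all 5 of its members held such peaks. In the run of 5 at chr1:185828910-185835796, 3 and 2 members did. This last run fell in the densest megabase of the set, chr1:185000001-186000000, with 48 members. Untreated H3K27me3 peaks of both sides were dense there. The ipsilateral lists had 260 and 314 at 13 and 21 months, against 42.3 and 108.0 per Mb over those lists. The contralateral lists had 79 and 289, against 18.6 and 131.9 per Mb.

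Contralateral members were more often single, 2736 of 2944 (92.9%), but formed the longest stretches. One stretch, chr1:180492699-182012260, ran for 1519562 bp and held 28 members, with no ipsilateral peak at either age, as the rule for a run requires. The 13-month contralateral list had 149 peaks in it, or 98.1 per Mb against 18.6 per Mb over its assembled chromosomes, while the 21-month contralateral list had 32, or 21.1 against 131.9 per Mb. H3K4me3 peaks numbered 24 and 35 at 13 months and 9 and 23 at 21 months on the ipsilateral and contralateral side. H3K9ac had 0 peaks in each untreated list but the ipsilateral 21-month one, which had 1.

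In both lists from rats given plasma, all of ipsilateral tissue, H3K27me3 peaks were also dense in the same stretch. With plasma of 22-month rats there were 133 peaks (87.5 per Mb against 18.4 over that list) and with plasma of 3-month rats 80 (52.6 against 13.4). Their median folds were 5.04 and 2.78, where the list medians were 3.38 and 3.36. A second stretch, chr13:33487646-33810596, held 11 members and showed the same order, with 41 and 11 peaks in the 13- and 21-month contralateral lists and 39 and 20 with the older and the younger plasma. The third, chr2:49357046-49371052, held 5 members in 14007 bp and no peak with plasma in any of them. The lists hold no reads, so whether peak density in the long stretches reflects the mark or the number of copies and the makeup of the libraries there was not tested.

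**Figure D3:**
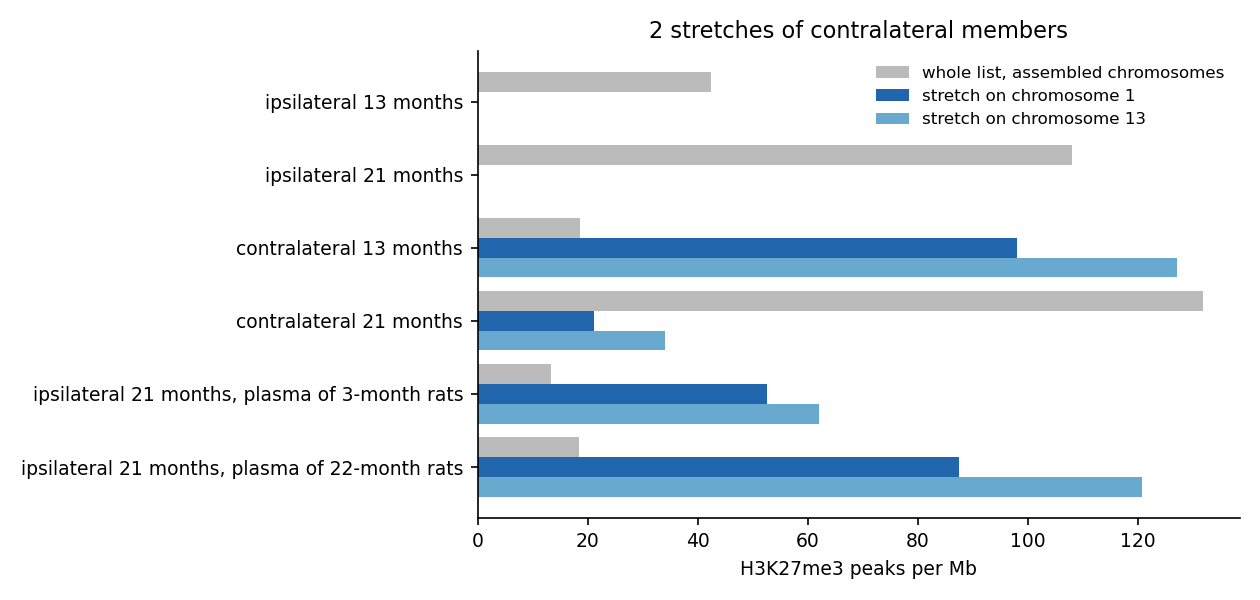
H3K27me3 peaks per Mb (horizontal axis) in each of 6 lists over the whole list (grey) and in the 2 longest stretches of contralateral members, on chromosome 1 (dark blue) and chromosome 13 (light blue). Both untreated ipsilateral lists are at 0 in the stretches, as the rule requires, while the lists with plasma, also ipsilateral tissue, stand above their own grey bars.

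H3K4me3 and H3K9ac were not used by the rule, and they differed between the sets. H3K4me3 peaks overlapped 290 (2.47%) and 296 (2.52%) ipsilateral members in the ipsilateral and contralateral 13-month lists and 274 (2.33%) and 375 (3.19%) in the 21-month lists. All joined regions had 2.6%, 2.44%, 2.5% and 3.24%, close to these shares. Unshared regions had 1.74%, 1.61%, 1.62% and 2.20%, below the ipsilateral shares in each list. Contralateral members overlapped more often in each of the same 4 lists, in order 220 (7.44%), 230 (7.78%), 220 (7.44%) and 259 (8.76%). Neither set had its H3K4me3 peaks mainly on one side.

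The kind of H3K4me3 peak also differed. At least 1 of the 4 lists had a peak in 639 ipsilateral (5.43%, 5.04 to 5.86) and 306 contralateral members (10.4%, 9.30 to 11.5), against 4.33% of all and 3.29% of unshared regions. Of these, all 4 lists had it in 150 ipsilateral members (1.28% of the set) and 192 contralateral ones (6.50%), with 1.81% of all and 1.02% of unshared regions. As a share of the members with H3K4me3 these were 23.5% (20.4 to 26.9) and 62.7% (57.2 to 68.0), against 41.8% over all and 31.1% over unshared regions. H3K4me3 without H3K9ac in any untreated list was found in 403 of the 639 ipsilateral members (63.1%) and in 74 of the 306 contralateral ones (24.2%), against 37.6% over all and 47.1% over unshared regions. Contralateral members with H3K4me3 thus mostly had it in every sample group and together with acetylation, and ipsilateral ones mostly in some lists and without it. A high share with H3K4me3 in any list was not particular to the contralateral set. Regions with H3K27me3 on both sides at 13 months alone had 18.7%. Those that lacked only the ipsilateral 21-month peak had 20.1%, and those that lacked only the ipsilateral 13-month peak 8.59%. Regions that changed sides had 4.14% and 4.79%.

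H3K9ac went the same way with a wider gap. Ipsilateral members overlapped an H3K9ac peak in 228 (1.94%) and 289 (2.46%) cases in the ipsilateral and contralateral lists at 13 months, and in 286 (2.43%) and 455 (3.87%) at 21 months. All regions had 3.34%, 4.99%, 5.91% and 3.7%, and unshared regions 2.53%, 3.98%, 4.82% and 2.93%. The ipsilateral set was below both in the first 3 lists, and in the contralateral 21-month list it was close to all regions and above the unshared ones. Contralateral members were above both in each list, with 252 (8.53%), 318 (10.8%), 386 (13.1%) and 219 (7.41%). A peak in at least 1 list was found in 664 ipsilateral (5.64%, 5.24 to 6.08) and 450 contralateral members (15.2%, 14.0 to 16.6), against 8.7% of all and 7.51% of unshared regions. All 4 lists had one in 120 (1.02%) and 190 (6.43%), against 1.92% and 1.25%. A peak in at least 1 list was also frequent in some regions with ipsilateral H3K27me3. It was found in 18.6% of those that lacked only the ipsilateral 13-month H3K27me3 peak and 17.9% of those that lacked only the ipsilateral 21-month one. Regions on both sides at 13 months alone had 4.51%, and regions that changed sides 6.01% and 5.26%. In members of 400 to 600 bp, a range chosen after seeing the data, the shares were 4.92% and 12.6%, with 7.64% over all and 7.53% over unshared regions of that length. With plasma, H3K9ac overlapped 254 (2.16%) and 407 (3.46%) ipsilateral and 197 (6.66%) and 396 (13.4%) contralateral members, where the first value of each pair is for plasma of 3-month rats and the other for plasma of 22-month rats, against 1.94% and 6.98% of all and 1.30% and 5.80% of unshared regions.

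**Figure D4:**
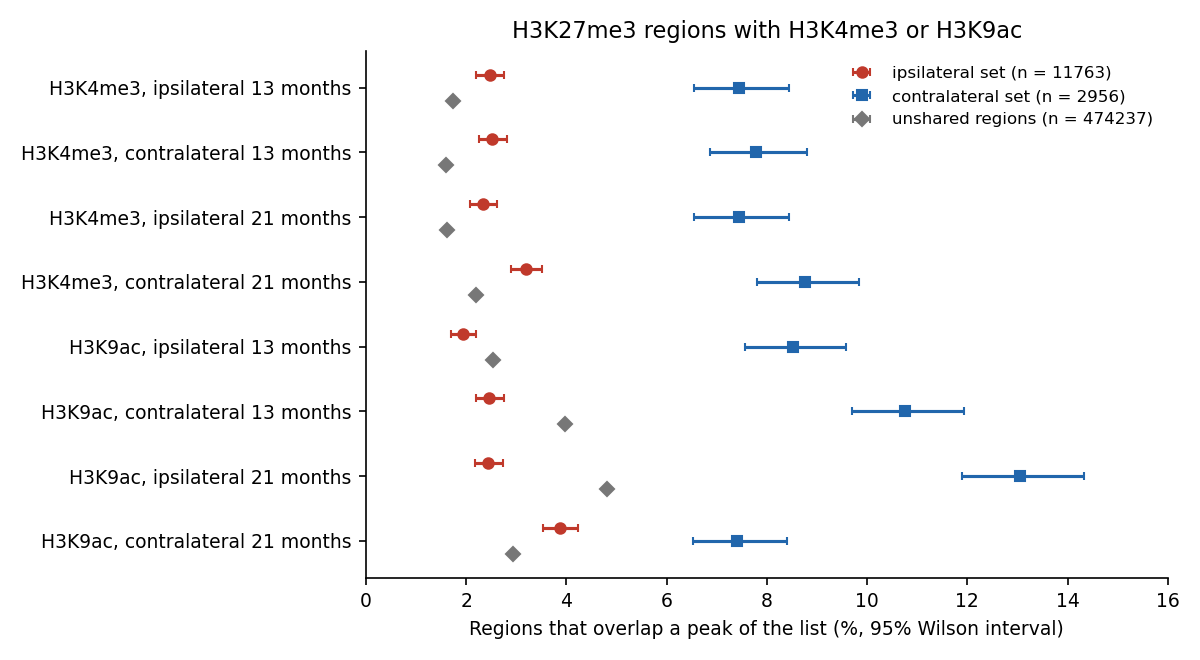
Share of regions (percent, horizontal axis) that overlap a peak of each untreated H3K4me3 and H3K9ac list, for the ipsilateral set (red circles), the contralateral set (blue squares) and unshared regions (grey diamonds); bars are 95% Wilson intervals over regions. Blue lies between 7.41% and 13.1% in all 8 lists and red between 1.94% and 3.87%.

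At 21 months H3K9ac tended to lie on the side that lacked H3K27me3. Of 365 ipsilateral members with H3K9ac on 1 side alone at that age, 98 had it on the ipsilateral side (26.8%, 22.6 to 31.6), whereas 174 of 181 such contralateral members did (96.1%, 92.2 to 98.1). Over all regions this share was 76.5% and over unshared ones 74.7%, and the sets lay on opposite sides of these. At 13 months the order was not the same. The ipsilateral side held the peak in 86 of 233 ipsilateral (36.9%) and 34 of 134 contralateral members (25.4%), against 26.6% over all and 27.6% over unshared regions. The 13-month ipsilateral H3K9ac list rests on 19323327 tags with 82% duplicates and its contralateral partner on 46299770, and at 21 months the tags were 66910243 and 99213634. The part of depth in these shares was not tested.

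Few members showed the mirrored pattern at both ages. H3K9ac in both contralateral lists and neither ipsilateral list was found in 35 ipsilateral members (0.298%, with 0.176% of all regions), and the reverse in 7 (0.0595%, with 0.239%). In the contralateral set, ipsilateral H3K9ac at both ages alone was found in 20 members (0.677%) and contralateral in 2 (0.0677%). In both sets, therefore, the opposite side had H3K9ac at both ages in more members than the own side. Shared regions had H3K9ac at both ages on the ipsilateral side alone in 0.676% and on the contralateral side alone in 0.328%. The opposite-side shares of the sets were close to these, and their own-side shares were lower.

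The strongest of these 35 ipsilateral members was chr13:100411711-100412651. Its H3K27me3 folds were 4.16 and 4.38 at 13 and 21 months on the ipsilateral side, its H3K9ac folds 4.05 and 4.94 on the contralateral side, and it had H3K4me3 in all 4 lists, with folds of 5.11 and 7.50 at 13 and 5.08 and 13.0 at 21 months on the ipsilateral and contralateral side. At chr13:68358773-68359799 the H3K27me3 folds were 3.42 and 3.91 and the contralateral H3K9ac folds 2.88 and 3.53, with H3K4me3 folds of 2.89 and 3.14 at 13 and 4.63 and 10.8 at 21 months in the same order. At both places the contralateral H3K4me3 fold was the higher at each age. The third, chr7:98755974-98757100, had H3K27me3 folds of 3.42 and 3.41 and H3K9ac folds of 3.96 and 3.34, with no H3K4me3 peak.

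Of the 20 contralateral counterparts, the leading 3 had no H3K4me3 peak. The region chr17:12002407-12003472 had contralateral H3K27me3 folds of 3.81 and 3.62 and ipsilateral H3K9ac folds of 3.36 and 1.89. At chr20:30999516-30999891 these were 3.62 and 3.67, and 3.65 and 3.35. At chr1:140304227-140305725 they were 3.29 and 3.29, and 3.01 and 2.46.

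The longest members differed in the same way as the sets. The longest ipsilateral members were chr2:51062577-51065169, chr11:71232927-71235374 and chr3:42427447-42429618, with folds of 4.08 and 3.43, 2.93 and 2.80, and 3.95 and 2.27 at 13 and 21 months. They had no H3K4me3 peak, and those on chromosomes 2 and 3 had H3K9ac in the contralateral 21-month list alone, with folds of 3.09 and 3.07. Each had a peak in 1 or both H3K27me3 lists with plasma. Of the longest contralateral members, chr20:10739113-10742213, with folds of 4.13 and 3.22, had H3K9ac in 2 lists. The other 2, chr16:83823442-83826276 (folds of 2.91 and 5.27) and chr13:98616329-98618344 (3.29 and 4.18), had H3K4me3 and H3K9ac in all 4 lists each. Their H3K9ac folds were lowest in the contralateral 21-month list, 6.27 against 11.1 to 18.6 in the other lists at the former and 3.46 against 6.01 to 16.6 at the latter. No longest contralateral member had a peak with plasma.

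The plasma lists gave further ipsilateral libraries, not used by the rule, in which to look for the same regions. Peaks with plasma of 3-month rats overlapped 1150 ipsilateral members (9.78%, 9.25 to 10.3) and 113 contralateral ones (3.82%, 3.19 to 4.58), with 4.75% of all and 3.15% of unshared regions. Peaks with plasma of 22-month rats overlapped 2004 (17.0%, 16.4 to 17.7) and 144 (4.87%, 4.15 to 5.71), with 5.69% and 4.54%. In either list there were 2745 ipsilateral (23.3%, 22.6 to 24.1) and 219 contralateral members (7.41%, 6.52 to 8.41), against 8.78% and 6.99%, and in both lists 409 (3.48%) and 38 (1.29%), against 1.66% and 0.703%. The ipsilateral set was above both backgrounds in each of these 4 counts. The contralateral set was below all regions and above the unshared ones, so its direction turned with the background. High shares were not particular to the ipsilateral set. The 643 regions with peaks on both sides at 13 months alone had 17.9% with plasma of 3-month and 26.1% with plasma of 22-month rats. Those on both sides at 21 months alone had 3.17% and 3.65%. Regions that changed sides had 4.34% and 7.39% (ipsilateral at 13 months), and 6.46% and 10.5% (contralateral at 13 months). The plasma lists are short, with 37241 and 51178 peaks from 41700562 and 44383604 tags, and have 38% and 46% duplicates, so a member without such a peak is not shown to have lost the mark. No list of contralateral tissue with plasma is analysed here, and the plasma groups and the untreated groups lie in separate processing folders, so treatment and folder cannot be told apart.

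The 2 long contralateral stretches weighed on the contralateral values. They held 39 members, of which 35 had a peak with plasma. Without them, a choice made after seeing the data, 110 of 2917 contralateral members (3.77%) had a peak with plasma of 22-month rats, 96 (3.29%) with plasma of 3-month rats, 184 (6.31%) with either and 22 (0.754%) with both. The first and the third of these shares then lay below those of unshared regions.

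Longer ipsilateral members were found again more often, and contralateral members were not. With plasma of 22-month rats the ipsilateral share was 11.2% under 400 bp, 15.1% from 400 to 600 bp, 23.2% above that and up to 1 kb, and 37.1% beyond 1 kb, against 3.30%, 4.97%, 6.94% and 17.1% of all and 3.29%, 4.83%, 6.36% and 8.86% of unshared regions. With plasma of 3-month rats it was 6.29%, 8.63%, 13.6% and 20.8%, against 1.83%, 3.35%, 5.67% and 20.6% of all and 1.81%, 3.17%, 4.90% and 8.99% of unshared regions. The longest ipsilateral members were thus close to all regions of that length in this list, but above the unshared ones. The contralateral shares stayed between 2.92% and 6.06% in the 4 length classes of the former list and between 3.11% and 4.36% in those of the latter.

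**Figure D5:**
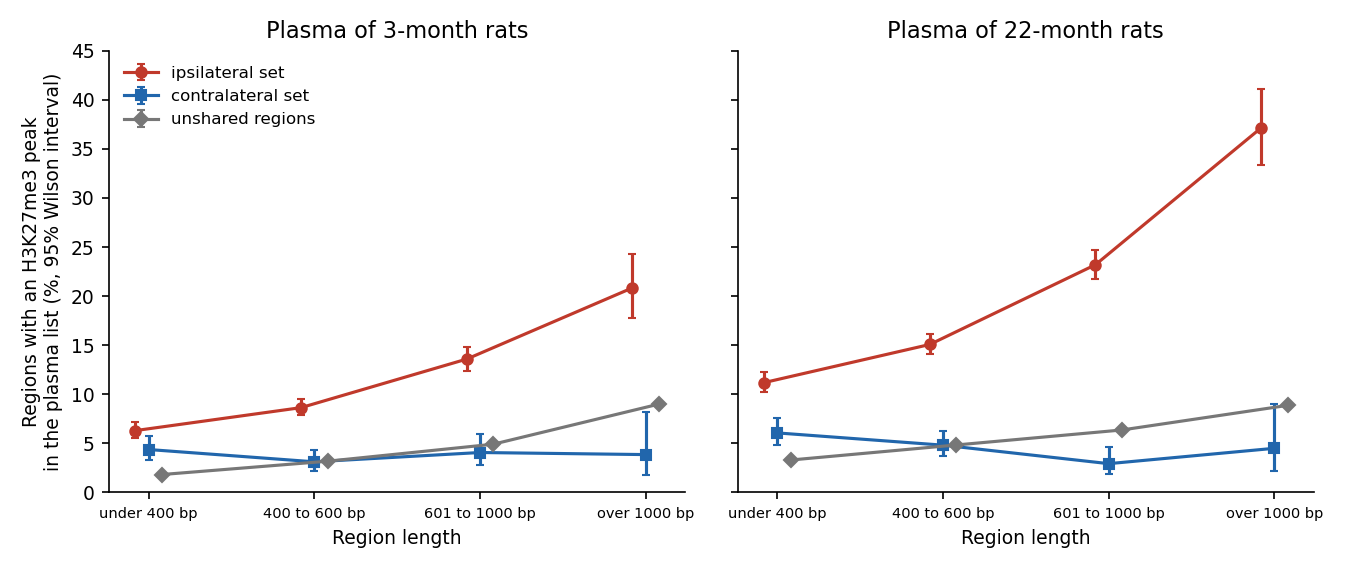
Share of regions with an H3K27me3 peak (percent, vertical axis) in the list with plasma of 3-month rats (left) and of 22-month rats (right) by region length class, for the ipsilateral set (red), the contralateral set (blue) and unshared regions (grey); bars are 95% Wilson intervals over regions. Red climbs to 20.8% and 37.1% in the longest class, where blue is at 3.85% and 4.49% and grey at 8.99% and 8.86%.

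Ipsilateral members with more confident peaks, or nearer to shared regions, also had higher shares with plasma. Ipsilateral members whose weaker own peak had a −log10 q-value under 2, of 2 to 5, and of 5 or more had a peak in either plasma list in 16.4%, 21.8% and 34.4% of cases, and contralateral members in 6.57%, 6.47% and 10.1%. Leaving out the 2 long stretches, these contralateral shares were 6.01%, 5.72% and 7.95%. Within 5 kb of a shared region the ipsilateral share was 29.2%, and farther away 21.1%. Unshared regions as a whole showed the same order, with 11.2% and 6.24%. The contralateral shares, 5.84% (3.96 to 8.54) and 7.66%, had the opposite order. Without the 2 long stretches the second was 6.38% (5.49 to 7.41), close to the first. With plasma of 3-month rats alone the contralateral shares were 4.14% and 3.77%, so the opposite order did not hold there. With plasma of 22-month rats they were 1.95% and 5.34%, the latter 4.07% without the stretches. Isolated ipsilateral members, with no contralateral peak within 5 kb, had 21.9%, close to the whole set, and isolated contralateral members 11.7%. This last value rests on the 2 long stretches, and without them it was 7.01% (46 of 656).

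Members found with both plasmas included strong ones. After chr5:118312011-118312988, the ipsilateral members of highest lower fold in both lists were chr4:32377695-32377965, with untreated folds of 5.29 and 4.62 and folds of 4.25 with plasma of 3-month and 2.97 with plasma of 22-month rats, and chr1:89776421-89776966, with 4.61 and 4.97 untreated and 3.37 and 2.56 with plasma. All 3 lay within 285 bp of a shared region. In the contralateral set they were chr14:34942293-34942591, with 3.31 and 3.33 untreated and 3.46 and 2.38 with plasma, chr1:180503191-180503427, with 2.86 and 2.81, and 4.27 and 8.65, and chr4:176746022-176746498, with 2.68 and 2.54, and 3.69 and 4.72. These 3 were weaker untreated and lay 12251 bp or more from a shared region, and the second belongs to the long stretch of chromosome 1. Over all members with a peak there, the median fold with plasma of 3-month rats was 3.48 in the ipsilateral and 3.16 in the contralateral set (list median 3.36). With plasma of 22-month rats it was 3.59 and 3.71 (list median 3.38).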

How the data were processed

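Groups were taken from the labels. Tools named in the submitters' processing notes, with neither version nor role, are HOMER, Bowtie2 and cutadapt. The authors called narrow peaks with MACS 2.1.1.20160309 at a q-value of 0.05 on the pooled libraries of a group, per the file headers. The labels and headers name no genome build (not given in the sources used here), and positions are 1-based as in the lists. The gene table at hand is for GRCr8, whose chromosome ends differ from those of the lists, so no gene or sequence was assigned. Narrow calling can split the broad domains of H3K27me3 into short peaks.

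For each peak the authors deposited the pileup, a coverage signal scaled within its list, and the −log10 p-value, both not used here. The fold enrichment, a ratio to local background, and the −log10 q-value, both deposited by the authors, served to describe, rank and filter peaks.

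Joining and overlap (at least 1 bp) used pandas 2.3.3, numpy 2.4.6 and scipy 1.17.1 under Python 3.11.15, were tested on simulated intervals, and were drawn with matplotlib 3.10.9. A region's fold is that of its highest peak in a list. Distance is from edge to edge. Shares among unshared regions were added as a further background after seeing the data. The sets, measures and named regions were chosen with earlier results of these data known. Named in each set were the 5 members of highest lower fold, the 3 longest, the 3 longest runs, the 3 strongest with H3K9ac on the opposite side alone at both ages, the 3 strongest in both plasma lists, and the 3 nearest to the threshold inside and outside it, on assembled chromosomes. A run is a row of members with no region of the other side's peaks between them. Alternatives were equal list lengths, stronger own peaks, joining within 1 kb, overlap of 50%, assembled chromosomes, and, added after seeing the data, a single length class and leaving out 2 stretches.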

Additional observations from a re-analysis of the deposited data

Results flagged for a closer look

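In the contralateral set the side with more H3K9ac was not the same at both ages. The share of members with H3K9ac in the ipsilateral list minus that in the contralateral list was -2.23 percentage points at 13 months (8.53% and 10.8%) and 5.65 at 21 months (13.1% and 7.41%). Over all joined regions the differences were -1.65 and 2.21. It is listed here because the ages have opposite signs. The difference between the ages was not tested, since each group has 1 pooled list, and age and processing folder cannot be told apart.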

How the results depend on the processing

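The sets were built again under 7 settings, 5 planned and 2 added after seeing the data. Of 64 values, 20 moved by less than their counting interval (for counts of regions, by less than 1.5 times) and 44 by more. Where a value was given for both sets, the same set was the higher in 31 of 31 comparisons. These are not independent, since all use the same lists again. Number, length and distance to shared regions come from the lists the rule used. With equal list lengths the median lengths were higher by little, 824 bp (804 to 839) against 820 bp (800 to 845), with overlapping intervals. With 51805 peaks per list there were 4136 ipsilateral members of median 824 bp. Of these 32.2% lay within 5 kb of a shared region, 7.42% had H3K4me3, 10.3% H3K9ac and 35.7% a peak with either plasma. Contralateral values were 820 bp, 18.6%, 13.7%, 24.7% and 10.2%. With own peaks at −log10 q-values of 5 or more, 2062 ipsilateral members remained by that rule, with 546 bp, 41.8%, 6.60%, 7.03% and 34.4% in the same order. Contralateral values were 750 members, 16%, 17.1%, 21.6% and 10.1%, the last 7.95% without the 2 long stretches. With peaks within 1 kb joined, the ipsilateral values were 5458 members, 936 bp, 13.0%, 7.95%, 5.22% and 24.7%. Contralateral ones were 1853 members, 675 bp, 7.93% near a shared region, 13.6% with H3K4me3 and 9.34% with plasma. With overlap of at least 50% of the shorter interval, H3K4me3, H3K9ac and plasma shares of ipsilateral members were 4.86%, 5.0% and 19.5%, and the contralateral plasma share was 6.33%. At 400 to 600 bp, ipsilateral shares were 26.5% near a shared region, 4.74% with H3K4me3, 4.92% with H3K9ac and 21.1% with plasma, and contralateral shares 8.86% with H3K4me3 and 12.6% with H3K9ac. Without the 2 long stretches the contralateral plasma share was 6.31%. The cause of these shifts was not tested, except that several settings enter fewer or longer regions by their construction. On assembled chromosomes alone all 12 values moved by less.

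No paired analysis was possible because each list pools the libraries of its group, and leaving out a replicate could not be run for the same reason. Depth limits absence: a region without a peak in a shallower list, as at 13 months on the contralateral side or with plasma, may fall below that list's threshold.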

Other observations

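In the long contralateral stretch of chromosome 1, H3K9ac also differed between the plasma lists. There were 42 H3K9ac peaks with plasma of 3-month rats and 0 with plasma of 22-month rats, while H3K27me3 had 80 and 133. In the stretch of chromosome 13 the H3K9ac peaks numbered 7 and 0. Untreated lists had 0 or 1 H3K9ac peaks in either stretch, and each plasma list is a single library pair, so these values have no replicate.

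The densest megabase of the ipsilateral set, on chromosome 1, had 72 H3K9ac peaks in the contralateral 21-month list and 34 in the ipsilateral one, and 36 and 29 at 13 months.

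Regions with an H3K27me3 peak in every untreated list but the contralateral 21-month one were few, 799, and 38.8% of them had a peak with plasma of 22-month rats and 26.2% with plasma of 3-month rats. For the ipsilateral set, which lacks the contralateral 13-month peak as well, these shares were 17.0% and 9.78%. The median lengths were 669 and 483 bp. Regions with the ipsilateral 13-month peak alone had 6.95% and 3.40%, and those with the ipsilateral 21-month peak alone 4.54% and 2.35%.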
